A study of Mus musculus with 12 samples.

Results

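The genes described here are the cornified envelope genes of the epidermal differentiation complex, followed through mouse skin sampled with and without tick bites. They were taken by name alone, with no use of their values. The name rule takes every gene whose symbol starts with Lce or Sprr followed by a digit, and adds Flg, Flg2, Lor, Ivl, Hrnr, Rptn, Kprp and Crct1. It found 44 of the 25070 genes in the expression table. These were 14 Lce1 genes, 6 Lce3 genes, Lce6a, 2 Sprr1 genes, 12 Sprr2 genes, Sprr4 and the 8 genes added by name. All 44 were matched by symbol to the RefSeq annotation of GRCm38.p6. They lay on chromosome 3 within 1.32 Mb, with Lor at one end (start 92080271) and Rptn at the other (end 93399442).

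As a keratinocyte leaves the basal layer of the epidermis and dies at the surface, it builds a tough shell of cross-linked protein under its membrane, the cornified envelope. Involucrin (Ivl) is laid down early as a scaffold, loricrin (Lor) makes up most of the finished shell, and the small proline-rich proteins (Sprr) act as bridges between its components. The late cornified envelope proteins (Lce) join toward the end, and transglutaminases form the cross-links. Profilaggrin (Flg) and its relatives are long repeat proteins that bind keratin filaments and, once broken down, hold water in the dead layers. Several Sprr genes are known to be induced in wounded and inflamed epidermis.

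RNA was sequenced from 12 skin biopsies of mice, each taken 4 days after tick attachment, and the series asks how skin responds to repeated infestation. Bitten skin came from mice labelled as having a first exposure (n = 3), from the groups ticks 2x and ticks 3x (n = 3 in either), and from a single mouse labelled saliva immune (n = 1). Skin without a bite, labelled naive and also dated to 4 days, gave 2 libraries. The labels do not say whether 2x and 3x count the sampled infestation, how saliva immunity was raised, or which strain and sex of mouse or species of tick was used. Whether different libraries are different animals is not said either, so p-values measure the spread between these samples, which may be technical. Sample titles put first exposure and saliva immune in a series numbered 4 and all other libraries in a series numbered 6. Differences of first exposure from ticks 2x, ticks 3x and naive skin therefore cannot be told apart from that title series. Levels are in CPM (reads per M, mega, library reads), and estimated depth was 12.5 M to 29.8 M reads. A level of 3 reads, used as the detection floor, lay between 0.101 and 0.24 CPM and covers counting error only.

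The tissue was checked first, because the members are made in a thin layer of the biopsy. The markers of cornified epidermis, Flg, Flg2, Lor and Ivl, were present in every library, the lowest value being 60.9 CPM for Flg. Follicle content differed widely inside the groups. The mean of a list of hair follicle genes, of which 19 of 20 were found, was 8.84, 9.17 and 1.30 in first exposure (log2(CPM + 1) scale), 8.66, 2.29 and 0.43 in ticks 2x, 4.77, 6.37 and 0.44 in ticks 3x, 0.39 in saliva immune, and 7.28 and 0.67 in naive skin. Up to 8 of those 19 genes, hair keratins such as Krt72, Krt33b and Krt34 among them, were listed at 0 in the libraries with the lowest means. In bulk samples, fewer cells of a type and less RNA per cell cannot be told apart.

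Promoter sequences show how alike and how different the members are at their start sites. Each window runs from 250 bases before to 50 bases after the first start that RefSeq lists for a gene (GRCm38.p6). Of the 44 members, 39 have a window, and other starts were not searched. The motif TGANTCA, which the AP-1 factors (Fos and Jun proteins) bind, and TATAAA, the letters of the TATA box, were searched on both strands. The AP-1 motif was found in 14 of the 39 windows, against 7.93% of all 27025 promoters. It was present in 7 of 10 Sprr2 windows, both Sprr1 windows, Lor, Ivl and 3 of 4 windows of the filaggrin family, and in 0 of 13 Lce1 and 0 of 6 Lce3 windows. TATAAA was found in 18 of 39, against 14.2% of all promoters. A CACCC box, bound by Klf factors, was found in 19 of 39, against 56.7% of all promoters. Members of a family share sequence, so these windows are not independent of each other, and a match is a description of letters, not a site in use. Lor, Flg and Lce1m are shown for the late layers, Sprr1a because its level differed 28.9-fold between libraries, and the Sprr2 genes because relatives within that family differed. Capitals mark TGANTCA matches and TATAAA.
Lor: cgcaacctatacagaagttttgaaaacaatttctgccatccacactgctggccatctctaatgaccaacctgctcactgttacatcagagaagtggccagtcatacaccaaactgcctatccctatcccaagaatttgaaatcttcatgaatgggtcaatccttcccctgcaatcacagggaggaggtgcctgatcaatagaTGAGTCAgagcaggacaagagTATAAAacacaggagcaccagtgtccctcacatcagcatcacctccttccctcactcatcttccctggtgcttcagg
Flg: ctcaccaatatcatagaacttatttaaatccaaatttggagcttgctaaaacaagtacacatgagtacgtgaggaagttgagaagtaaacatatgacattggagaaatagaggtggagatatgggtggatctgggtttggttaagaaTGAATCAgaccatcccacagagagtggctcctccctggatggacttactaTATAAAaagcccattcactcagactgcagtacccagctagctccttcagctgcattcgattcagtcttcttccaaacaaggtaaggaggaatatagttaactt
Lce1m: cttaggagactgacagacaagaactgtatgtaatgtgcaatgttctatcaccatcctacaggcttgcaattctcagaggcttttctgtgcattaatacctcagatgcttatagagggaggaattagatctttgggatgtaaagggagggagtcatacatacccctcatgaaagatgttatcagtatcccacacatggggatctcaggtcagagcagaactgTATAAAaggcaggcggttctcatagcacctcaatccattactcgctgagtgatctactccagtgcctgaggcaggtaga
Sprr1a: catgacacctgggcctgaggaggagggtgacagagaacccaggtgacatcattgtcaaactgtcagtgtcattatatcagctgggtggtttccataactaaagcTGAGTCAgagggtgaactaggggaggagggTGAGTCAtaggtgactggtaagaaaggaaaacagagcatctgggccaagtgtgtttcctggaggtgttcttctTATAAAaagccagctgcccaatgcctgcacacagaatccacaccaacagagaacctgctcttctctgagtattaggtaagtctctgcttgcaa
Sprr2a1: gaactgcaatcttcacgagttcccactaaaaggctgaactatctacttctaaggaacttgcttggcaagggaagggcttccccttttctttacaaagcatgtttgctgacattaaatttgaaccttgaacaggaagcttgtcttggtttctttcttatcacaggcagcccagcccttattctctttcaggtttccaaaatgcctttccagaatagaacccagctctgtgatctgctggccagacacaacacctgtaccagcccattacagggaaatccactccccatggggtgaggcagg
Sprr2d: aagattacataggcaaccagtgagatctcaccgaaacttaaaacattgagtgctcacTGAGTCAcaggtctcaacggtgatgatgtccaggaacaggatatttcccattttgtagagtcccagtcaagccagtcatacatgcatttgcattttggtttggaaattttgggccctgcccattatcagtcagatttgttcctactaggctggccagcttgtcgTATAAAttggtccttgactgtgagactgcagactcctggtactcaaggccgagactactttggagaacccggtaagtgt
Sprr2h: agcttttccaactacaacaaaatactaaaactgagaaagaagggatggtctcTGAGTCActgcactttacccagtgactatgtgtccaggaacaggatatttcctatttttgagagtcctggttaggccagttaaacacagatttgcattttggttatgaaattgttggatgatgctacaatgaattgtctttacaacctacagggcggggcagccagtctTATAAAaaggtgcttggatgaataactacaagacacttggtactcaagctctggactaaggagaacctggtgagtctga
The Lor window, at chr3:92083093-92083392 on the minus strand, holds its TGANTCA match 48 bases before the start and TATAAA 27 bases before it. In Flg, at chr3:93273296-93273595 on the plus strand, the match lies 103 bases and TATAAA 53 bases before the start. Lce1m, at chr3:93019012-93019311 on the minus strand, has TATAAA at 29 bases and no TGANTCA. Sprr1a, at chr3:92485832-92486131 on the minus strand, holds 2 matches, 146 and 116 bases before the start. Sprr2d, at chr3:92338890-92339189 on the plus strand, and Sprr2h, at chr3:92385435-92385734 on the plus strand, have the match at 193 and 198 bases and TATAAA at 29 bases. Their windows were 65.8% identical when aligned. The Sprr2a1 window, at chr3:92215585-92215884 on the plus strand, held neither motif at the first start RefSeq lists. It was identical to that of Sprr2a2 over all 300 bases. Annotated exons cover 3003 bases in Sprr2a1, against 681 in Sprr2d and 752 in Sprr2h. Whether the Sprr2a1 window lies at the start in use was not tested.

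The members spanned a wide range of levels. Of the 44, 21 were at 1 CPM or more in all 12 libraries, 19 in some, and 4 in none: Lce3a, Lce3b, Sprr2k and the pseudogene Sprr2j-ps. Per kilobase of annotated exon, Lor had the highest median over the libraries, 504 CPM per kb, ahead of Lce1m at 190, Crct1 at 177, Sprr1a at 144, Flg2 at 125 and Kprp at 115 CPM per kb. Ivl had a median of 52.3 CPM per kb, Hrnr 13.2, Flg 7.2 and Rptn 4.81 CPM per kb. The ranges over the libraries of neighbours in this order overlapped: Lor ran between 111 and 820 CPM per kb and Lce1m between 36.9 and 247. The filter for testing (1 CPM or more in 2 or more of the 11 libraries outside saliva immune) passed 36 members and left out Lce3a, Lce3b, Lce3e, Lce3f, Sprr2b, Sprr2i, Sprr2j-ps and Sprr2k.

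**Figure D1:**
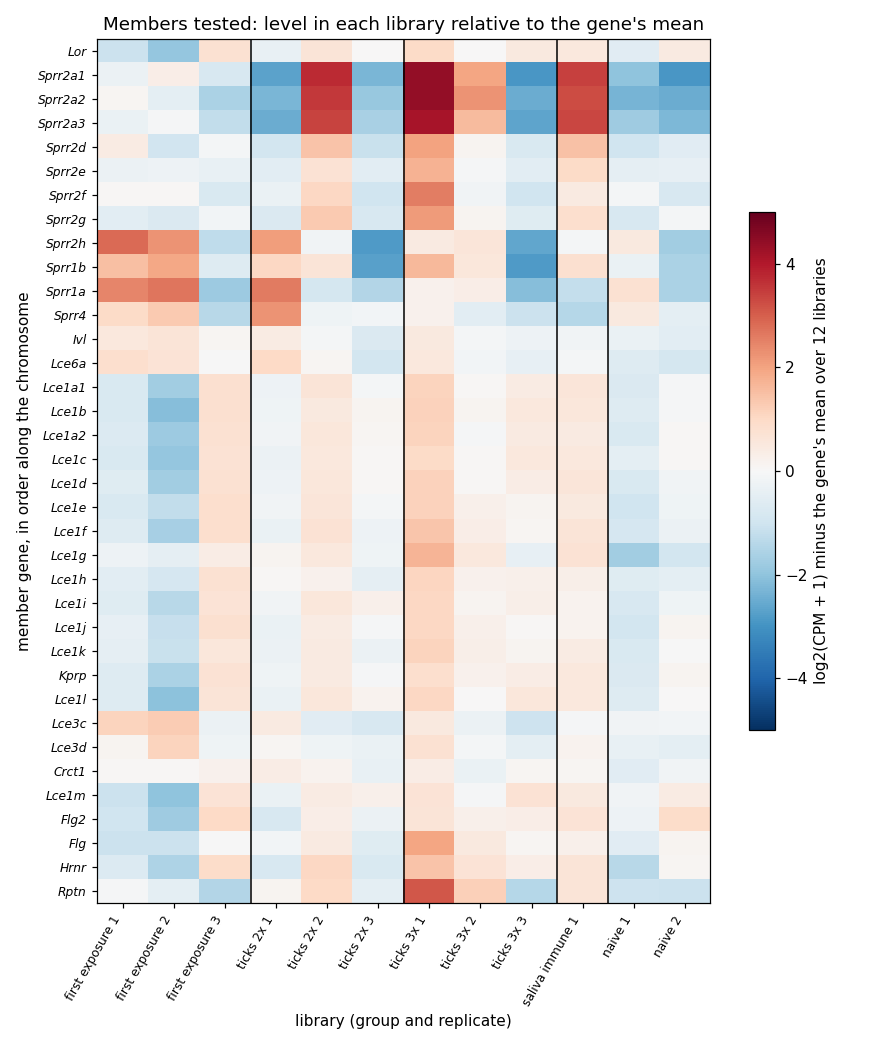
Colour gives log2(CPM + 1) minus the gene's mean over 12 libraries for the 36 members tested, 1 row per gene in chromosome order and 1 column per library; black lines separate the groups. The Lce1 rows share a pattern with a low in first exposure replicate 2, and Sprr2a1 to Sprr2a3 are high in ticks 2x replicate 2, ticks 3x replicates 1 and 2 and saliva immune.

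Loricrin and filaggrin 2 together took between 32.4% and 78.8% of the members' reads, a share that is not corrected for gene length, and both spread most widely inside first exposure. Lor, the main protein of the envelope, was at 358, 198 and 1264 CPM in first exposure, 581, 1184 and 767 CPM in ticks 2x, 1458, 765 and 1065 CPM in ticks 3x, 1068 CPM in saliva immune, and 513 and 1028 CPM in naive skin. Flg2, a filaggrin relative, was at 1058, 620 and 4199 CPM in first exposure, 1199, 2697 and 1710 CPM in ticks 2x, 3306, 2543 and 2664 CPM in ticks 3x, 3382 CPM in saliva immune, and 1759 and 3966 CPM in naive skin. Both genes had their lowest value in first exposure replicate 2, and first exposure replicate 3 stood well above the other libraries of its group. First exposure, ticks 2x and ticks 3x each overlapped naive skin for both. Lor averaged 607 ± 575 CPM in first exposure, 844 ± 309 in ticks 2x and 1096 ± 348 in ticks 3x (SD, n = 3 each), against 770 ± 364 in naive skin (SD, n = 2). Against naive skin, its log2 fold change was -0.70 in first exposure (SE 0.694, adjusted p = 0.632) and 0.54 in ticks 3x (SE 0.694, adjusted p = 0.923), by limma with Benjamini-Hochberg adjustment over all genes. For Flg2 in first exposure it was -0.91 (SE 0.732, adjusted p = 0.549).

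Flg itself, the source of filaggrin monomers, was at 60.9, 62.3 and 130 CPM in first exposure, 118, 180 and 86 CPM in ticks 2x, 521, 185 and 141 CPM in ticks 3x, 158 CPM in saliva immune, and 88.4 and 143 CPM in naive skin. A single library, ticks 3x replicate 1, stood far above the rest. Ticks 3x replicate 2, at 185 CPM, lay slightly above every ticks 2x and naive library. Ticks 3x replicate 3, at 141 CPM, lay within the ranges of ticks 2x and of naive skin. Hornerin (Hrnr), another repeat protein of this family, was at 78.3, 43.2 and 239 CPM in first exposure, 72, 258 and 74.1 CPM in ticks 2x, 344, 202 and 161 CPM in ticks 3x, 198 CPM in saliva immune, and 47.7 and 135 CPM in naive skin. All ticks 3x libraries lay above both naive ones, whereas first exposure and ticks 2x spread over the naive range. Repetin (Rptn) was at 23, 16.8 and 8.2 CPM in first exposure, 26.5, 48.5 and 16.9 CPM in ticks 2x, 217, 56.9 and 8.27 CPM in ticks 3x, 38.7 CPM in saliva immune, and 11.1 and 10.8 CPM in naive skin. Its ticks 2x libraries lay above naive skin, and ticks 3x held both the highest and nearly the lowest value of all. In ticks 3x against naive skin the log2 fold changes were 1.47 for Hrnr (SE 0.796, adjusted p = 0.781) and 2.03 for Rptn (SE 1.07, adjusted p = 0.778), so neither passed the limma test.

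Involucrin, the early scaffold, ranked the libraries in another order than loricrin did. Ivl was at 157, 171 and 117 CPM in first exposure, 143, 101 and 66 CPM in ticks 2x, 154, 100 and 89.9 CPM in ticks 3x, 94.6 CPM in saliva immune, and 86.3 and 74.9 CPM in naive skin. All first exposure and all ticks 3x libraries lay above naive skin, and ticks 2x overlapped it. The mean was 148 ± 28.2 CPM in first exposure (SD, n = 3), against 80.6 ± 8.04 CPM in naive skin (SD, n = 2), a log2 fold change of 0.86 (SE 0.331). With an adjusted p of 0.251 by limma it did not pass over all genes. Crct1, a small cysteine-rich protein, was at 138, 139 and 153 CPM in first exposure, 170, 150 and 103 CPM in ticks 2x, 173, 106 and 144 CPM in ticks 3x, 142 CPM in saliva immune, and 89.6 and 118 CPM in naive skin. First exposure lay above naive skin in each library, and the other groups overlapped it. Kprp, a proline-rich keratinocyte protein, was at 177, 93.7 and 460 CPM in first exposure, 239, 380 and 270 CPM in ticks 2x, 498, 323 and 360 CPM in ticks 3x, 401 CPM in saliva immune, and 169 and 303 CPM in naive skin. Ticks 3x lay above naive skin in each library, and first exposure and ticks 2x overlapped it.

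**Figure D2:**
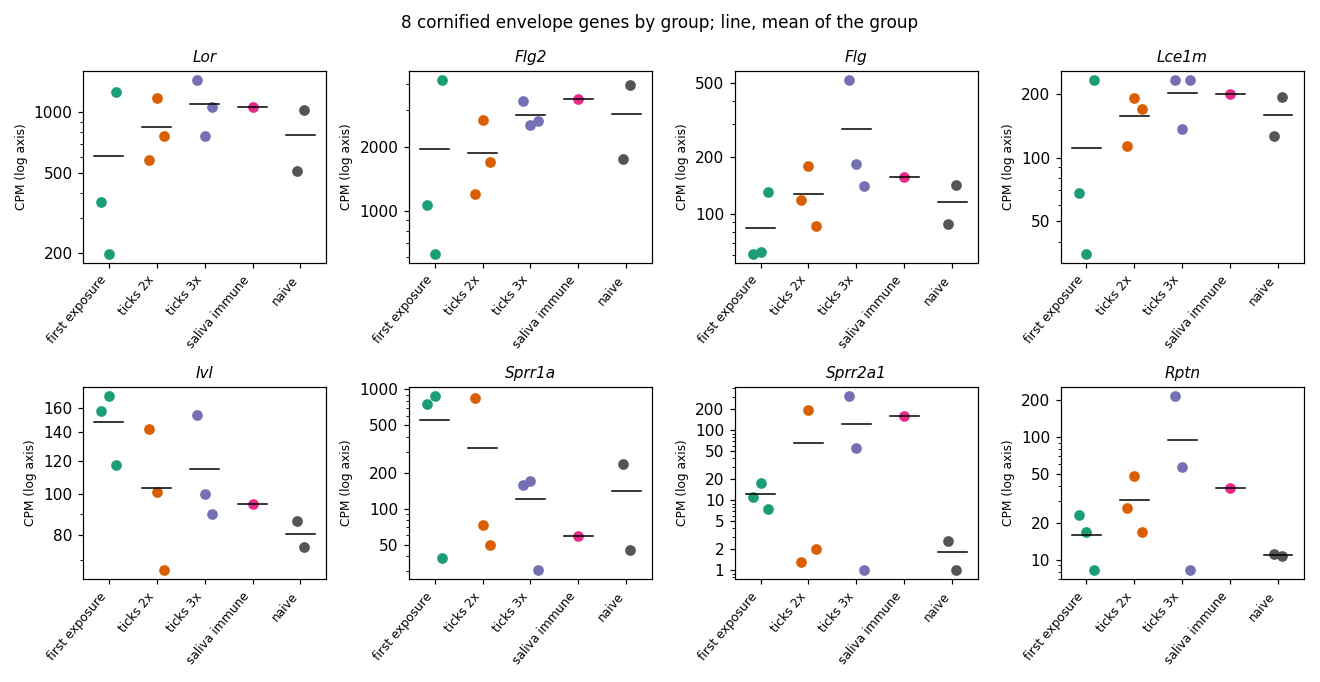
Each point is 1 library and each line the group mean, in CPM on a log axis, for Lor, Flg2, Flg, Lce1m, Ivl, Sprr1a, Sprr2a1 and Rptn. Points within a group often spread as widely as the whole panel, for example 1 to 312 CPM for Sprr2a1 within ticks 3x.

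The 14 Lce1 genes varied together over the libraries. Their summed level was 249, 115 and 750 CPM in first exposure, 364, 644 and 477 CPM in ticks 2x, 901, 459 and 641 CPM in ticks 3x, 644 CPM in saliva immune, and 306 and 481 CPM in naive skin. The highest library thus held 7.82 times the sum of the lowest. Of the 14, 13 had their lowest value in first exposure replicate 2, and 13 their highest in ticks 3x replicate 1. The exceptions were Lce1g, lowest in naive replicate 1, and Lce1m, highest in ticks 3x replicate 3. Lce1m was at 67.8, 35 and 232 CPM in first exposure, 113, 191 and 170 CPM in ticks 2x, 232, 137 and 234 CPM in ticks 3x, 200 CPM in saliva immune, and 126 and 193 CPM in naive skin. Lce1a1 was at 40, 19.6 and 119 CPM in first exposure, 57.1, 107 and 64.1 CPM in ticks 2x, 151, 71.5 and 91.5 CPM in ticks 3x, 106 CPM in saliva immune, and 41.5 and 66.1 CPM in naive skin. Both followed the family pattern, and for Lce1a1 alone of these the ticks 3x libraries all lay above naive skin.

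Lce1g, singled out after its values were seen, had the lowest p of the members in ticks 2x and in ticks 3x against naive skin. It was at 2.42, 1.97 and 4.23 CPM in first exposure, 3.46, 4.93 and 2.52 CPM in ticks 2x, 12.1, 4.88 and 2.05 CPM in ticks 3x, 5.75 CPM in saliva immune, and 0.236 and 1.13 CPM in naive skin. All 9 bitten libraries of the tested groups lay above both naive libraries. The log2 fold change against naive skin was 1.48 in ticks 2x (SE 0.551, adjusted p = 0.387), 1.93 in ticks 3x (SE 0.551, adjusted p = 0.539) and 1.54 over the 3 bitten groups with equal weight (SE 0.472, adjusted p = 0.297). None of these passed the limma test over all genes, and naive replicate 1 is near its detection floor of 0.101 CPM. Its neighbour Lce1h, also named after its values were seen, was at 6.05, 2.91 and 3.02 CPM in ticks 3x, against 1.21 and 1.37 CPM in naive skin. These 2 groups did not overlap, and the log2 fold change was 1.07 (SE 0.466, adjusted p = 0.714 by limma).

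The Lce3 genes, whose human relatives are known for induction after barrier damage and in psoriasis, were at low levels. The sum of all 6 lay between 0.1 and 7.88 CPM. Lce3c was at 3.91, 4.42 and 0.863 CPM in first exposure, 2.1, 0.528 and 0.31 CPM in ticks 2x, 2.16, 0.842 and 0.0997 CPM in ticks 3x, 1.19 CPM in saliva immune, and 0.974 and 1.04 CPM in naive skin. Lce3d did not exceed 2.02 CPM in any library, and was listed at 0 in ticks 3x replicate 3 and naive replicate 2. Lce6a, a single late envelope gene, was at 54.6, 48.7 and 29.3 CPM in first exposure, 60.3, 32.3 and 15.3 CPM in ticks 2x, 43.3, 27.5 and 22.5 CPM in ticks 3x, 28.2 CPM in saliva immune, and 18.6 and 16 CPM in naive skin. First exposure and ticks 3x lay above naive skin in each library, and ticks 2x held both the highest and the lowest of the 12 values. In first exposure against naive skin the log2 fold change of Lce6a was 1.26 (SE 0.505, adjusted p = 0.263 by limma).

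Sprr1a, an envelope precursor known for induction in stressed epidermis, had a pattern unlike that of Lor or Lce1. It was at 748, 880 and 38.4 CPM in first exposure, 835, 73.6 and 49.3 CPM in ticks 2x, 158, 172 and 30.5 CPM in ticks 3x, 59.6 CPM in saliva immune, and 235 and 44.9 CPM in naive skin. The 3 highest libraries were the 3 with the highest hair follicle means, first exposure replicates 1 and 2 and ticks 2x replicate 1. The next in level, naive replicate 1 and ticks 3x replicates 2 and 1, were also the next in follicle mean. First exposure replicates 1 and 2 and ticks 2x replicate 1 were the 3 highest libraries for 14.7% of all genes. They were so for 4 of the 36 members, Sprr1a, Sprr2h, Sprr4 and Lce6a. The part of follicle content in the levels of Sprr1a was not tested directly. Its close relative Sprr1b was at 25.4, 34.8 and 4.96 CPM in first exposure, 18, 13.4 and 0.435 CPM in ticks 2x, 28, 12.8 and 0.299 CPM in ticks 3x, 15 CPM in saliva immune, and 6.45 and 2.08 CPM in naive skin. Its levels overlapped between the tested groups, and saliva immune lay above both naive libraries. Sprr4 was at 14.8, 18.8 and 2.07 CPM in first exposure, 37.6, 5.97 and 6.33 CPM in ticks 2x, 8.32, 4.63 and 2.79 CPM in ticks 3x, 1.99 CPM in saliva immune, and 10.3 and 4.71 CPM in naive skin. Saliva immune had the lowest value, and the tested groups overlapped. Against naive skin, first exposure had a log2 fold change of 1.51 for Sprr1a (SE 1.61, adjusted p = 0.655 by limma).

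The Sprr2 genes split into members with different patterns. Sprr2a1 was at 11.1, 17.7 and 7.64 CPM in first exposure, 1.33, 196 and 2.04 CPM in ticks 2x, 312, 56.9 and 1 CPM in ticks 3x, 159 CPM in saliva immune, and 2.65 and 0.999 CPM in naive skin. Its highest value was 312 times its lowest, and 4 libraries, ticks 2x replicate 2, ticks 3x replicates 1 and 2 and saliva immune, stood above all others. Within ticks 2x and within ticks 3x, at least 1 library overlapped naive skin, whereas first exposure lay above naive skin throughout. The log2 fold change against naive skin was 2.21 in first exposure (SE 2.21, adjusted p = 0.632), 2.05 in ticks 2x (SE 2.21, adjusted p = 0.778) and 3.62 in ticks 3x (SE 2.21, adjusted p = 0.806), by limma. Without ticks 2x replicate 2 the value for ticks 2x was -0.02. Sprr2a2 was at 11.1, 7.04 and 2.8 CPM in first exposure, 1.33, 131 and 2.04 CPM in ticks 2x, 238, 52.2 and 1 CPM in ticks 3x, 106 CPM in saliva immune, and 1.28 and 0.999 CPM in naive skin. It followed Sprr2a1 closely, and the 2 genes had the same value within 0.001 CPM in 5 of 12 libraries.

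Counts of the Sprr2a genes cannot be cleanly separated. Of the 50-base words in their GENCODE vM21 transcripts, 96.3% in Sprr2a1, 96.5% in Sprr2a2 and 61.1% in Sprr2a3 also occur in another member. Their sum is therefore the safer measure, and it was 29.4, 33.8 and 14 CPM in first exposure, 3.54, 438 and 6.52 CPM in ticks 2x, 732, 139 and 2.69 CPM in ticks 3x, 372 CPM in saliva immune, and 6.04 and 3.2 CPM in naive skin. The same libraries stand high as for Sprr2a1 alone. Shared words made up 9.12% to 25.4% in the Lce1 genes other than Lce1m, and 12.1% to 49.3% in Lce3, so values of single genes in those families are also uncertain. Lor, Flg, Flg2, Hrnr, Rptn, Ivl, Kprp, Crct1, Lce1m, Lce6a, Sprr1a, Sprr1b, Sprr4 and Sprr2h shared none with other members.

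**Figure D3:**
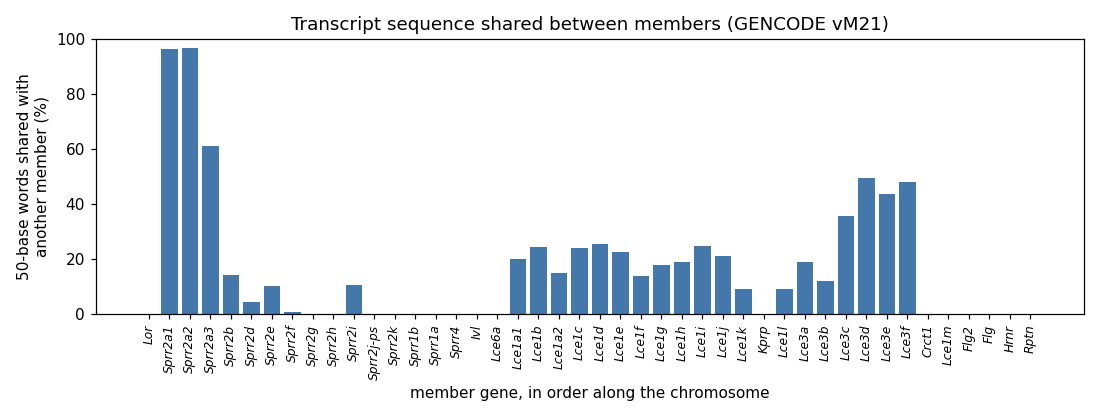
Bars give, for each member in chromosome order, the percent of 50-base words of its transcripts that occur in another member, from 0 to 100. Sprr2a1 and Sprr2a2 stand above 96%, Lor, Ivl and the filaggrin family at 0.

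Sprr2h, whose promoter resembles that of Sprr2d in both motifs, had another pattern than Sprr2a1. It was at 65.7, 43.8 and 2.85 CPM in first exposure, 38.6, 7.29 and 0.31 CPM in ticks 2x, 12, 13.4 and 0.548 CPM in ticks 3x, 7.84 CPM in saliva immune, and 12.2 and 1.84 CPM in naive skin. The 3 libraries with the most Sprr2h were the same 3 as for Sprr1a and for 14.7% of all genes. Sprr2d, at 2.03, 0.167 and 1.12 CPM in first exposure, 0.197, 5.07 and 0.0622 CPM in ticks 2x, 8.18, 1.5 and 0.349 CPM in ticks 3x, 5.34 CPM in saliva immune, and 0.134 and 0.559 CPM in naive skin, was highest where Sprr2a1 was. Sprr2e, Sprr2f and Sprr2g also had their highest value in ticks 3x replicate 1.

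Wound keratins and basal keratinocyte genes also varied over the libraries. The mean of 4 wound keratins (Krt6a, Krt6b, Krt16 and Krt17, which keratinocytes switch on at a wound edge) was 7.12, 7.14 and 5.43 in first exposure (log2(CPM + 1) scale), 7.61, 8.10 and 5.36 in ticks 2x, 8.70, 7.71 and 5.37 in ticks 3x, 7.28 in saliva immune, and 5.86 and 5.74 in naive skin. The 4 libraries with the most Sprr2a RNA were among those with the higher wound keratin means. Ticks 2x replicate 1, at 7.61, had only 3.54 CPM of Sprr2a RNA. Krt17 was highest in first exposure replicates 1 and 2 and ticks 2x replicate 1, at 1046, 1193 and 1582 CPM. These are also the libraries with the highest follicle means. The part of follicle content in the wound keratin mean was not tested. Basal keratinocyte genes had means of 7.96, 7.54 and 8.84 in first exposure, 7.95, 8.69 and 8.18 in ticks 2x, 8.78, 8.49 and 8.40 in ticks 3x, 8.78 in saliva immune, and 7.93 and 8.69 in naive skin. They were lowest in first exposure replicate 2, where the Lce1 sum was also lowest. The part of keratinocyte content in the member levels was not tested beyond the fits with the basal keratinocyte mean as a covariate. Those fits are given with the comparisons, and none used the wound keratin mean.

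**Figure D4:**
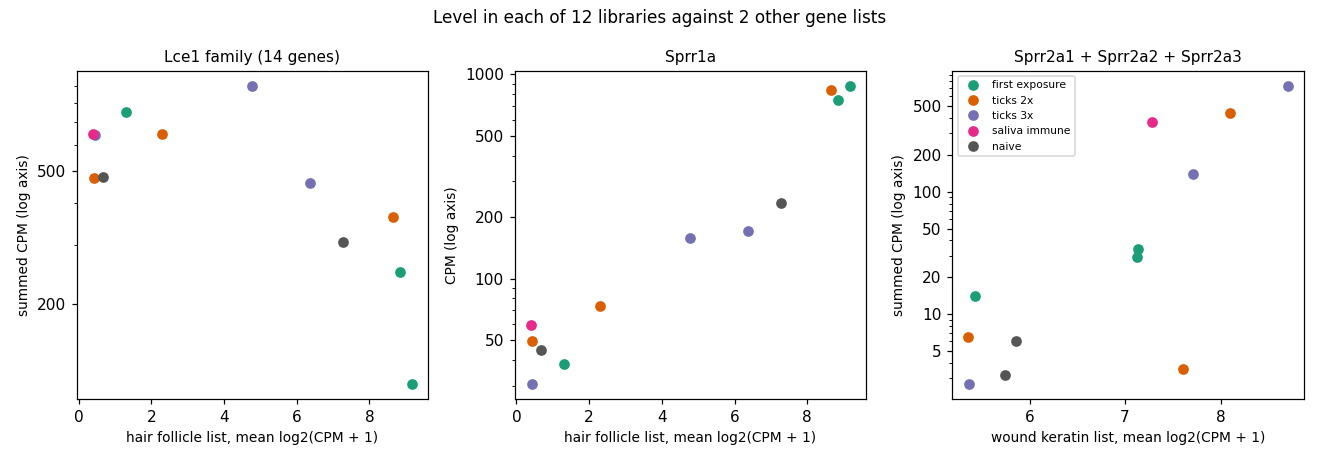
Each point is 1 of 12 libraries: the Lce1 sum (left) and Sprr1a (middle) in CPM on a log axis against the hair follicle mean, and the Sprr2a sum (right) against the wound keratin mean, both in log2(CPM + 1). The 3 libraries with follicle means above 8 have Sprr1a of 748 to 880 CPM and Lce1 sums of 115 to 364 CPM.

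In first exposure against naive skin, 0 of 36 members passed the limma test (adjusted p below 0.05), where 0.0117% of all genes were called. At an unadjusted p under 0.05 there were 2 members, Ivl and Lce6a, against 16.4% of all genes. Log2 fold changes were above 0 for 24 of 36, with a median of 0.22, against 0.08 over all genes. The median was -0.17 without first exposure replicate 3 and -0.02 without naive replicate 1, so its direction rests on single libraries. Libraries of the groups did not overlap, first exposure being higher, for 9 members (25%), against 21% of all genes: Crct1, Ivl, Lce1g, Lce3d, Lce6a, Sprr2a1, Sprr2a2, Sprr2a3 and Sprr2e. Sprr2e and Lce3d were under the detection floor in both naive libraries, and Sprr2e did not exceed 0.223 CPM in first exposure. The members' share was near the background, and without first exposure replicate 3 it was 16 members, against 42.8% of genes. No member was lower without overlap, against 14% of genes.

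In ticks 2x against naive skin, 0 of 36 members passed, where limma called 0.0352% of all genes, and Lce1g was the 1 member with an unadjusted p under 0.05, against 10.9% of genes. Log2 fold changes were above 0 for 33 members, with a median of 0.47, against 0.01 over all genes. That median was 0.23 without ticks 2x replicate 2, and 0.73 without naive replicate 2. Ticks 2x was higher without overlap for 7 members (19.4%), against 14.7% of genes: Lce1e, Lce1g, Lce1h, Lce1i, Lce3d, Rptn and Sprr2a2. Of these, Lce3d was under the detection floor in ticks 2x replicate 3 and in both naive libraries. The count became 14 without ticks 2x replicate 1 (22.9% of genes) and 11 without ticks 2x replicate 3 (24% of genes). It was 20 without naive replicate 2 (22.2% of genes). Without ticks 2x replicate 2 it stayed at 7 (19.4% of members), against 18.5% of genes. Leaving out naive replicate 1 gave 10 (27.8% of members), against 29.6% of genes, so the members' share was then below that of all genes. No member was lower without overlap, against 12.8% of genes.

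In ticks 3x against naive skin, again 0 of 36 members passed, where limma called 0.00586% of all genes. Lce1g and Lce1h had an unadjusted p under 0.05, against 6.95% of genes. Log2 fold changes were above 0 for 33 members, with a median of 0.88, against 0.02 over all genes, and the median was 0.54 without ticks 3x replicate 1. Ticks 3x was higher without overlap for 14 members (38.9%), against 15.5% of genes. These were Hrnr, Ivl, Kprp, Lce6a and 10 Lce1 genes, namely Lce1a1, Lce1b, Lce1d, Lce1e, Lce1f, Lce1g, Lce1h, Lce1i, Lce1k and Lce1l. The Lce1 genes share sequence and varied together, so they are not separate pieces of evidence. The count stayed at 14 without ticks 3x replicate 1 (17.9% of genes), and became 19 without ticks 3x replicate 2 (18% of genes). It was 25 without ticks 3x replicate 3 (34.5% of genes) and 24 without naive replicate 2 (27% of genes). Without naive replicate 1 it was 16 (44.4% of members), against 30.8% of genes, a narrower margin than with all libraries kept. No member was lower without overlap, against 9.58% of genes. With the basal keratinocyte mean as a covariate the median was 0.65, with the follicle mean 0.87, and 0 members passed in either fit.

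**Figure D5:**
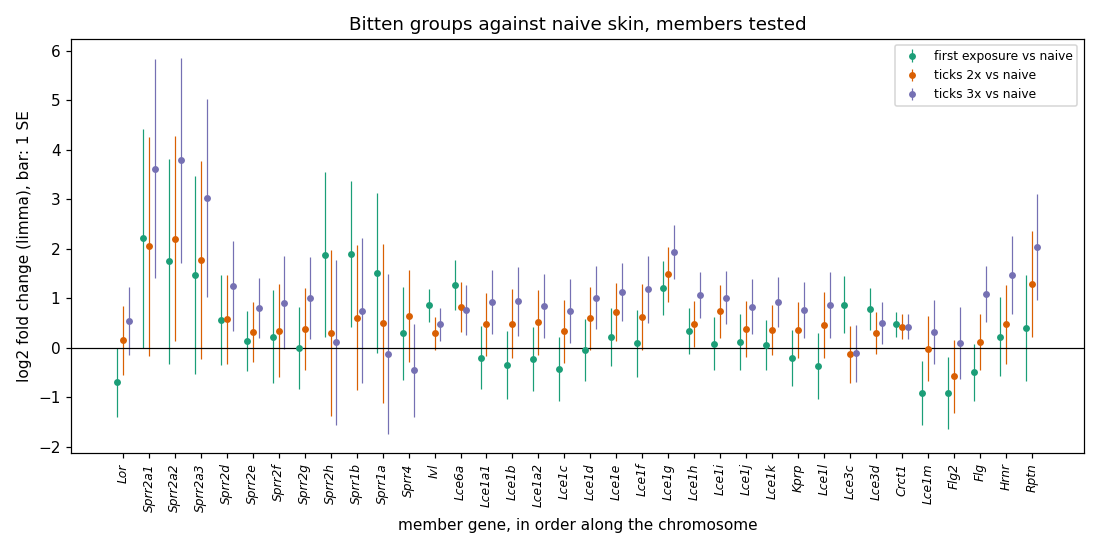
Points give limma's log2 fold change (log2(CPM + 1) scale) of first exposure, ticks 2x and ticks 3x, each against naive skin, for the 36 members tested in chromosome order; bars are 1 SE. Most ticks 3x points lie above 0, and the longest bars belong to Sprr2a1 to Sprr2a3, Sprr2h, Sprr1b and Sprr1a.

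Across all 3 bitten groups with equal weight, 0 of 36 members passed against naive skin, where limma called 0.041% of all genes, and Lce1g alone had an unadjusted p under 0.05, against 11.2% of genes. The median was 0.50, against 0.06 over all genes, with 34 members above 0, and it was 0.32 without naive replicate 1. Lce1g was the 1 member (2.78%) for which every bitten library lay above naive skin, against 4.02% of genes, and 0 members lay below it throughout, against 3.31% of genes. The 3 comparisons of single groups share the same naive libraries, so their directions are not independent.

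Repeat exposure joins ticks 2x and ticks 3x (n = 6) and was set against first exposure (n = 3). Here 0 of 36 members passed, where limma called 0.82% of all genes (0.246% higher and 0.574% lower). Flg and Lce3c had an unadjusted p under 0.05, against 20.6% of genes. Flg had a lowest, median and highest level of 86, 161 and 521 CPM in repeat exposure, against 60.9, 62.3 and 130 CPM in first exposure, and the groups overlapped. Its log2 fold change was 1.10 (SE 0.490, adjusted p = 0.236). Lce1m had 1.07 (SE 0.486, adjusted p = 0.245), Lor 1.04 (SE 0.519, adjusted p = 0.273), Lce3c -0.99 (SE 0.422, adjusted p = 0.224) and Sprr1a -1.33 (SE 1.19, adjusted p = 0.506). The median over the members was 0.69, against -0.06 over all genes, with 27 above 0; it was 0.29 without first exposure replicate 2. No member separated the groups without overlap, against 8.25% of genes (3.07% higher and 5.17% lower).

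A single library changed the calls in that comparison. Without first exposure replicate 3, the library of its group with the low follicle mean, limma called 12 members: Kprp, Lor, Lce3c and 9 Lce1 genes (Lce1a1, Lce1a2, Lce1b, Lce1c, Lce1d, Lce1e, Lce1i, Lce1l and Lce1m). All but Lce3c were higher in repeat exposure. In that fit 13.3% of all genes were called. The 2 first exposure libraries that remain have follicle means of 8.84 and 9.17, and basal keratinocyte means of 7.96 and 7.54. With the follicle mean as a covariate and all libraries kept, the median was 0.47 and 0 members passed, and with the basal keratinocyte mean it was 0.26 and 0 members passed. First exposure also differs from repeat exposure in title series, and these cannot be told apart.

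In ticks 3x against ticks 2x, 0 of 36 members passed, where limma called 0% of all genes, and 0 members had an unadjusted p under 0.05, against 5.15% of genes. The median was 0.43, against 0.03 over all genes, with 32 above 0, and it was 0.08 without ticks 3x replicate 1. Flg had a log2 fold change of 0.96 (SE 0.508, adjusted p = 0.894) and Sprr4 of -1.10 (SE 0.837, adjusted p = 0.902). Lce1h was the 1 member (2.78%) without overlap, higher in ticks 3x, against 7.3% of genes.

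The spread inside groups was the main feature of these genes. The share of a member's variance that lay within the 4 tested groups had a median of 67.7% (between 40.4% and 89%), against 59.6% over all genes. The residual SD on the log2 scale had a median of 0.81 among members, against 0.29 over all genes, and was widest for Sprr2a1 at 2.78. Ticks 3x replicate 1 was the highest of all 12 libraries for 26 of the 36 members, against 6.33% of all genes. First exposure replicate 2 was the lowest for 17, against 21% of all genes.

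Neighbouring members often had their highest level in the same library, and neighbours in a family also share sequence. In order along chromosome 3, the 8 tested members Lor, Sprr2a1, Sprr2a2, Sprr2a3, Sprr2d, Sprr2e, Sprr2f and Sprr2g were all highest in ticks 3x replicate 1. So were the 14 consecutive members made up of Lce1a1 to Lce1l and Kprp. That library was the highest for 26 of the 36 members. Neighbours highest there therefore do not by themselves show an effect of position. Between the runs of 8 and 14, from 92385685 to 92621660, a span of 236 kb, lie the tested members Sprr2h, Sprr1b, Sprr1a, Sprr4, Ivl and Lce6a. Each was highest in one of the 3 libraries with the highest follicle means. The untested Sprr2i, Sprr2j-ps and Sprr2k, all at low levels, lie there too. Sprr2i was highest in ticks 3x replicate 1 (1.07 CPM) and Sprr2j-ps in saliva immune (0.312 CPM). Sprr2k was highest in first exposure replicate 1 (0.21 CPM). These runs were seen in the data and not tested. With Lce3c and Lce3d, 8 of the 36 tested members (22.2%) were highest in one of the 3 libraries with the highest follicle means. This was fewer than the 34.7% of all genes, so the members as a whole do not stand out in this.

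The saliva immune library gives values with no test. For 35 of the 36 members it lay within the range of the 9 bitten libraries, against 89.1% of all genes, Sprr4 lying below. Set against the 3 first exposure libraries from the same title series, it was within their range for 23 members (63.9%), against 50.8% of all genes. It lay above for 10 of 36 members, against 4458 of 17064 genes, namely Flg, Lce1g, Rptn, Sprr2a1, Sprr2a2, Sprr2a3, Sprr2d, Sprr2e, Sprr2f and Sprr2g, and below for 3, Ivl, Lce6a and Sprr4, against 3930 genes.

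Genes that work with the envelope were read from lists. Of 3 transglutaminases, 10 plakins and desmosomal proteins, 9 suprabasal keratins and partners, 15 filaggrin-processing and desquamation genes, 16 other genes of the complex and 21 regulators tested, 0 passed the limma test in any of the 6 comparisons. In ticks 3x against naive skin, 8 of 9 suprabasal genes were above 0 (median 0.46), 14 of 15 processing genes (median 0.51), 10 of 10 plakins and desmosomal genes (median 0.20), 12 of 16 other genes of the complex (median 0.16), 2 of 3 transglutaminases (median 0.02) and 10 of 21 regulators (median -0.01). In ticks 3x, 53.2% of all genes were above 0 (median 0.02). In first exposure against naive skin, 1 of 9 suprabasal genes was above 0 (median -0.51) and 10 of 15 processing genes (median 0.44). For ticks 2x the counts were 4 of 9 (median 0) and 13 of 15 (median 0.32). In repeat against first exposure the medians were 0.77 for suprabasal genes, 0.45 for processing genes and 0.12 for regulators. They were -0.32 for transglutaminases, -0.23 for plakins and desmosomal genes and -0.22 for other genes of the complex, against -0.06 over all genes.

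Leading genes of these lists differed in pattern. Krt10, the keratin of the suprabasal layers, was at 2383, 1378 and 9099 CPM in first exposure, 2567, 8974 and 3645 CPM in ticks 2x, 8200, 5360 and 5896 CPM in ticks 3x, 7096 CPM in saliva immune, and 3410 and 6129 CPM in naive skin. It was lowest in first exposure replicate 2, as were Lor and most Lce1 genes. Tgm1, the main cross-linking enzyme of the epidermis, was at 128, 144 and 95.9 CPM in first exposure, 135, 110 and 63.4 CPM in ticks 2x, 112, 102 and 74.7 CPM in ticks 3x, 75.5 CPM in saliva immune, and 78.9 and 82.4 CPM in naive skin. Its levels, like those of Ivl, were above naive skin in each first exposure library. Tchh, a structural protein of the inner root sheath encoded in the same complex, was at 9175, 9484 and 17.7 CPM in first exposure, 8505, 54.3 and 4.41 CPM in ticks 2x, 458, 1908 and 5.83 CPM in ticks 3x, 4.6 CPM in saliva immune, and 2613 and 5.35 CPM in naive skin. The libraries rich in Tchh are those rich in Sprr1a. Dsp, a desmosomal plakin, followed neither pattern, at 3438, 3014 and 3887 CPM in first exposure, 3241, 3397 and 1920 CPM in ticks 2x, 3515, 2988 and 2642 CPM in ticks 3x, 3597 CPM in saliva immune, and 2333 and 3313 CPM in naive skin.

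By profile over the 12 libraries, the genes most like the mean of the members tested were Rbp2 (root mean square difference 0.17 on the log2 scale), Casp14 (0.25), Il1f6 (0.27), Fetub (0.29) and Serpinb3a (0.31). The members' own mean departed from its average by 0.62 on that measure. Il1f6 reached at most 4.38 CPM, Fetub 3.75 CPM and Serpinb3a 2.78 CPM, and Serpinb3a was listed at 0 in both naive libraries. The log2(CPM + 1) scale understates changes of such low genes, so the likeness of these genes is uncertain. Casp14 encodes the protease that helps break down filaggrin.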

How the data were processed

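The deposited table, made by the authors, holds CPM for each of 25070 named genes in 12 mouse skin libraries, with 0.0001 added to every value. The submitters' processing notes name STAR, Partek 8.0.19 and the build GRCm38.p6. The annotation and the counting step are not named in the sources used here. Depth was estimated here from the spacing of low CPM values. Between 73.5% and 79.3% of them fell on whole reads within 0.02 reads, so counts were not recovered and no count test was run.

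Groups follow the labels: first exposure, ticks 2x and ticks 3x with n = 3 each, saliva immune (n = 1, described only) and naive (n = 2). Genes reaching 1 CPM in 2 or more of 11 libraries (17064) were compared with limma 3.58.1 (R 4.3.3) on log2(CPM + 1) with a variance trend, two-sided. A fit of 4 groups has 7 residual degrees of freedom. Ticks 2x and 3x pooled were set against first exposure in a fit of 3 groups with 8. A gene was called when its p, adjusted after Benjamini and Hochberg over all 17064 genes, was below 0.05. A fold change on the log2(CPM + 1) scale understates the change of low genes. The test was checked on simulated data in which every gene had the same spread, set at the lower quartile over all genes. The median residual SD was 0.81 for the members, against 0.29 over all genes. That check therefore does not show what could be detected for the members.

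The members, gene lists, comparisons and alternatives were chosen with earlier results of these data known. Described in full were the 8 genes added by name and the 2 of each family with the highest mean CPM; other members given values were chosen after those were seen. Of the other lists, genes with the highest mean CPM were named. Alternatives were scaling by median of ratios or by quantiles, pseudocounts of 0.5 and 0.1, array weights, robust moderation, only the groups compared, a minimum of 5 CPM or none, covariates for 2 tissue lists, and leaving out each library. Counts without overlap were recomputed without each library after seeing the data. Promoters are RefSeq's for GRCm38.p6, exon lengths and transcripts GENCODE vM21's. Figures were drawn with matplotlib 3.10.9, and tables made with pandas 2.3.3 and numpy 2.4.6 in Python 3.11.15.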

Additional observations from a re-analysis of the deposited data

Results flagged for a closer look

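The Sprr2a genes stood out in the saliva immune library, which enters no test because it is the only one of its group. Sprr2a1 was at 159 CPM, Sprr2a2 at 106 CPM and Sprr2a3 at 107 CPM there, each at least 10 times the higher naive library. In naive skin Sprr2a1 was at 2.65 and 0.999 CPM. Ticks 2x replicate 2 and ticks 3x replicate 1 reached still higher levels of Sprr2a1, 196 and 312 CPM. The transcripts of the 3 genes share most of their sequence, so they are close to 1 measurement. The wound keratin mean of the saliva immune library was 7.28 on the log2(CPM + 1) scale, against 5.86 and 5.74 in naive skin. That difference came from Krt16 and Krt6b, at 141 and 127 CPM in saliva immune. In naive skin Krt16 was at 13.1 and 12.2 CPM, and Krt6b at 10.2 and 11.6 CPM. Krt6a, at 108 CPM, lay between the naive values of 125 and 107 CPM. Krt17, at 297 CPM, was lower than in any other library. The part of wound keratin state in the Sprr2a level was not tested.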

How the results depend on the processing

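The count of 0 members called held in all 6 comparisons under every alternative run, with 3 exceptions. With array weights it was 1 in ticks 3x against naive skin (Lce1g) and 29 in repeat against first exposure, where 60.4% of all genes were called and the iteration of the weights did not reach its tolerance. Leaving out single libraries gave 0 to 12 members in repeat against first exposure, 12 being without first exposure replicate 3. Of the 22 named log2 fold changes, 468 of 478 values kept their direction and side of the threshold, 9 passed it and 1 changed sign: Sprr2a1 in ticks 2x against naive skin ran between -0.02 and 3.18 with single libraries left out. Counts without overlap, naive skin being lower, ran from 14 to 25 in ticks 3x and 7 to 20 in ticks 2x with single libraries left out. In first exposure they ran from 9 to 16. The share of all genes also moved, with all libraries kept or single ones left out. It ran from 15.5% to 34.5% in ticks 3x, 14.7% to 29.6% in ticks 2x and 21% to 42.8% in first exposure. The members' median ran between -0.11 and 0.41 in first exposure, 0.40 and 0.60 in ticks 2x, 0.65 and 1.19 in ticks 3x, and 0.26 and 1.18 in repeat against first exposure under the other alternatives. The cause of these changes was not tested. The fit of only the groups compared was not run for bitten against naive skin, which uses all groups. Groups of 2 or 3 libraries and low levels of Lce3 and several Sprr2 genes limit what can be detected. No paired analysis was possible because replicate numbers were given in accession order and link no libraries across groups.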

Other observations

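Closest profiles to single members or families were also listed, by a choice made after the data were seen. Krt16 and Krt6b, keratins of wounded epidermis, were among the 5 genes closest to Sprr2a1, at root mean square differences of 1.20 and 1.22 on the log2 scale, with Stfa3 (0.74), Gsdmc (0.98) and Chil4 (1.43). Sprr2a1 itself departed from its mean by 2.63. Krt6b was at 29.1, 30.4 and 7.61 CPM in first exposure, 40.3, 267 and 7.47 CPM in ticks 2x, 382, 123 and 9.6 CPM in ticks 3x, 127 CPM in saliva immune, and 10.2 and 11.6 CPM in naive skin. It was highest in the same 4 libraries as Sprr2a1. The other listed wound keratins, Krt6a and Krt17, did not follow Sprr2a1. Both were highest in ticks 2x replicate 1, at 515 and 1582 CPM, where Sprr2a1 was at 1.33 CPM. Krt17 was lowest in saliva immune, at 297 CPM. Closest to Sprr1a were Alox8 (0.27) and Tgm3 (0.28), one of the listed transglutaminases, against 1.71 for Sprr1a itself. Tgm3 was at 191, 257 and 10.7 CPM in first exposure, 157, 24.6 and 13.8 CPM in ticks 2x, 32.3, 48.3 and 11 CPM in ticks 3x, 14.7 CPM in saliva immune, and 69.2 and 14.9 CPM in naive skin. Closest to Flg2 were Skint5 (0.11) and Krt77 (0.18), a suprabasal keratin, against 0.81 for Flg2 itself. All these are likenesses over the same 12 libraries, which share depth and tissue content.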
